A study of Mus musculus with 6 samples.

Results

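The 10 genes described here encode the calcium store of the heart muscle cell and the channels, exchanger and scaffold that work with it: Cacna1c, Ryr2, Casq2, Trdn, Asph, Hrc, Jph2, Atp2a2, Pln and Slc8a1. They were taken by their symbols from a deposited table of 22063 genes, and all 10 were present and had enough counts to be tested. The series compared heart muscle cells (cardiomyocytes) of wild-type mice given 300 mg/kg/day of the citric acid cycle metabolite α-ketoglutarate (AKG, the same molecule as 2-oxoglutarate) or phosphate-buffered saline (Control). Per the labels, injections were daily for 2 weeks and the mice were at postnatal day 21, without saying whether that day opened or closed the injections. Cells were released by Langendorff perfusion, in which the heart is perfused through its own coronary vessels, and mRNA libraries were sequenced, 3 per group. The labels used here do not tell single mice from pools and give no sex, so p-values measure only the spread between these libraries.

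In each heartbeat, calcium enters through the L-type channel in the surface membrane and opens the ryanodine receptor of the sarcoplasmic reticulum (SR), the internal calcium store, which releases the calcium that drives contraction. Relaxation follows when the SR calcium pump SERCA2 takes calcium back into the store and the sodium-calcium exchanger carries the rest out of the cell. Phospholamban holds the pump back until it is phosphorylated. Inside the store, calsequestrin and the histidine-rich calcium-binding protein buffer calcium, and triadin and junctin tie calsequestrin to the release channel. The long protein product of Asph, the gene that also makes junctin, is an aspartyl and asparaginyl hydroxylase that uses 2-oxoglutarate as a co-substrate.

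The stretch before the start site is printed for 4 members that differed in how they moved: Hrc and Casq2, which were lower after AKG, Slc8a1, which was higher, and Pln, which was not past the threshold. The sequences are from RefSeq (GRCm38.p6), where 7 of the 10 members had an entry, and run over the 250 bases before the start, 5′ to 3′ on the strand of the gene. They stand at chr7:45335019-45335268 (plus strand) for Hrc, chr3:102086165-102086414 (plus strand) for Casq2, chr17:81738388-81738637 (minus strand) for Slc8a1 and chr10:53337436-53337685 (plus strand) for Pln. Capitals mark matches on either strand to 6 short motifs: the E-box CANNTG, the GATA motif AGATAA, the TEAD motif GGAATG, the TATA motif TATAAA, and the MEF2 and CArG motifs.
Hrc: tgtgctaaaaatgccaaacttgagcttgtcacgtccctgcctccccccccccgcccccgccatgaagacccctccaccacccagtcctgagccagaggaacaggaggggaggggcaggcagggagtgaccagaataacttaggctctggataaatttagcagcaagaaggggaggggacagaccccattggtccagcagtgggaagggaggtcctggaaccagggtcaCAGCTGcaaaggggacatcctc
Casq2: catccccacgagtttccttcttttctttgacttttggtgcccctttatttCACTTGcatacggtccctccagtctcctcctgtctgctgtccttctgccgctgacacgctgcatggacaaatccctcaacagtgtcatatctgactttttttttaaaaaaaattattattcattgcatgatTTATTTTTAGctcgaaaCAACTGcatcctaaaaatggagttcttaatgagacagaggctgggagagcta
Slc8a1: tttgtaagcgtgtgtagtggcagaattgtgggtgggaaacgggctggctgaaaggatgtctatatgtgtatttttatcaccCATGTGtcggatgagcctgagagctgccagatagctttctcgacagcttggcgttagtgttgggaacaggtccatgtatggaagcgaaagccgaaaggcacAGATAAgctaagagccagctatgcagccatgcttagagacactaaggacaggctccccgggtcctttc
Pln: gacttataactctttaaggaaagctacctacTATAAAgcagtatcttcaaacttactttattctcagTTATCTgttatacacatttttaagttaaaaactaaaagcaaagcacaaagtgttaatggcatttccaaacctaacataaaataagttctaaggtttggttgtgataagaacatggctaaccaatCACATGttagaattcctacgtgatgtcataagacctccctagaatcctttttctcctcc

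Each of these stretches held an E-box, and so did 66.2% of 32536 stretches of the same length over the table of starts. Casq2 held a MEF2 match, which was found in 2.89% of all stretches. Pln and Slc8a1 each held a GATA match (9.97% of all), and Pln a TATA match that begins 219 bases before the start (12.3% of all). No match to the TEAD motif (12.6% of all) or the CArG motif (1.48% of all) was found in the 4 stretches. The base composition ranged from 32.8% G and C in Pln to 59.6% in Hrc. These matches describe letters only, and binding was not measured.

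Libraries held 14402876 to 17797368 counts. Levels within a gene are given as CPM (counts over the library's size) after scaling with TMM factors (trimmed mean of M-values). This scaling sets the bulk of genes level between libraries, so that a rise or fall is relative to that bulk. The 5 cardiomyocyte markers (Myh6, Tnnt2, Tnni3, Actc1 and Mybpc3) summed to 48826 to 53516 CPM in Control and 21059 to 23703 CPM after AKG. Most of that sum was Myh6 (means of 27743 CPM in Control and 12427 CPM after AKG) and Actc1 (11995 and 2996 CPM). By the threshold given below, 4 of the 5 fell, beside 25.2% of all tested genes. Mybpc3 did not pass it (log2 fold change 0.08, edgeR adjusted p = 0.519). Among markers of other cells, summed levels were lower after AKG for fibroblasts (1059 to 1320.0 CPM in Control, 834 to 995 CPM after AKG), smooth muscle and pericytes (1931 to 2118 and 932 to 1133 CPM) and macrophages (85.9 to 126 and 51.3 to 71.2 CPM). They overlapped for endothelium (1242 to 1359 and 1319 to 1545 CPM). Within these lists of 6 genes each, by the same threshold, 2 fibroblast markers rose and 3 fell, and 0 smooth muscle and pericyte markers rose and 5 fell. For macrophages 0 markers rose and 3 fell, and for endothelium 3 rose and 2 fell. Of all tested genes, 25% were higher and 25.2% lower. Neutrophil markers summed to 0.736 to 1.497 CPM in Control and to between 5.23 and 12.0 CPM after AKG. None of these markers was at 0 in every library. The 5 atrial markers summed to 6.40 to 12.0 CPM in Control, to 359 and 219.6 CPM in AKG 1 and AKG 3, and to 7.58 CPM in AKG 2, so AKG 1 and AKG 3 stood apart. The Y-linked genes Ddx3y, Uty, Kdm5d and Eif2s3y, chosen after values had been seen, together reached 168, 0.311 and 176 CPM in the Control libraries, against 39.0 to 89.2 CPM in the AKG libraries, so Y-linked levels were uneven between libraries. The part of these differences in the results below was not tested. In bulk libraries, fewer cells of a type and less RNA per cell cannot be told apart.

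Most of the calcium store transcripts were lower after AKG relative to the bulk of genes, while the exchanger transcript was higher. Of the 10 members, 7 fell (Hrc, Casq2, Ryr2, Trdn, Asph, Jph2 and Atp2a2), 1 rose (Slc8a1), and Pln and Cacna1c were not past the threshold. The threshold was 0.05 for p from edgeR's quasi-likelihood test, adjusted by Benjamini-Hochberg over 13117 genes. Over all tested genes 50.2% were past the threshold, 25.2% lower and 25% higher. The median log2 fold change was -0.57 over the members and 0.00 over all genes. The groups did not overlap for these 8 changed members, and 59.2% of all tested genes had groups that did not overlap. With AKG 2, low in atrial transcripts, as the only AKG library, the same 7 had log2 fold changes of -1.72 (Hrc) to -0.56 (Jph2). Slc8a1 was then at 0.20, and the median was -0.71 over the members and -0.01 over all genes.

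**Figure D1:**
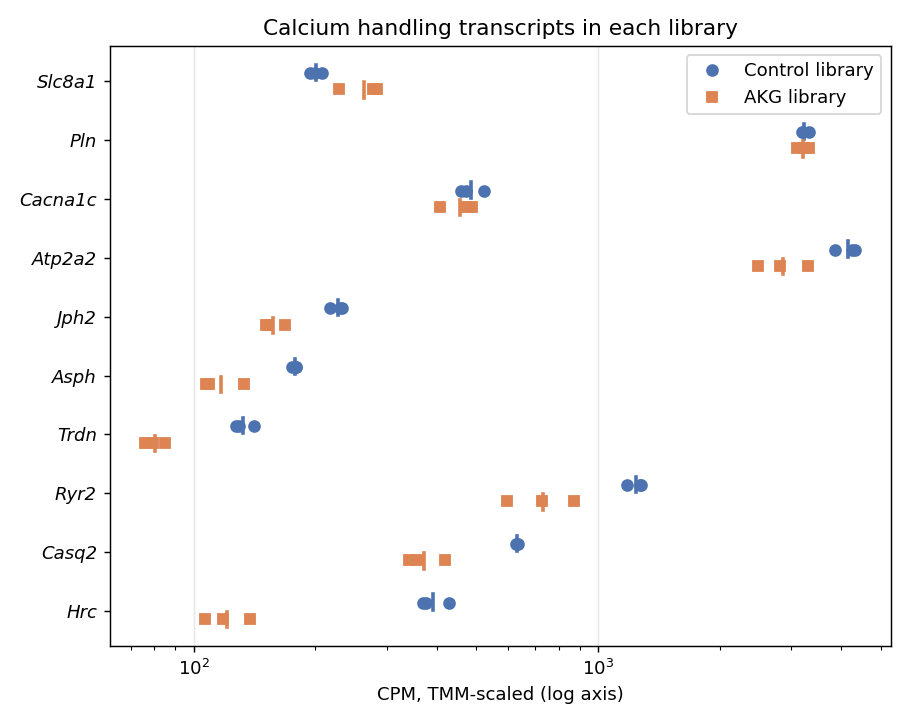
CPM of each member in each library after TMM scaling, on a log axis. Circles are Control libraries, squares AKG libraries, and short bars the group means. AKG squares lie left of all Control circles for the 7 genes that fell and right of them for Slc8a1 only.

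The calls, and for some members the direction, changed with what a library was scaled to. When libraries were scaled to their total counts alone, the median gene had a log2 fold change of 0.45. Mitochondrially encoded transcripts went from 40.8 ± 2.44% to 29.0 ± 2.99% of counts (SD, n = 3). Of the members, 3 were then higher (Slc8a1, Pln and Cacna1c), beside 56.7% of all genes, and 3 lower (Hrc, Casq2 and Trdn), beside 9.12% of all genes. Groups then did not overlap for 70.1% of all genes. Atp2a2, Jph2, Ryr2 and Asph were not past the threshold on that scale. Hrc and Casq2 were lower and Slc8a1 was higher on all 3 scales compared: TMM, total counts and log2(FPKM + 1), where FPKM is the deposited level corrected for transcript length and library total. Scaling to the summed cardiomyocyte markers, a sum held mostly by Myh6 and Actc1, was chosen after values had been seen. On that scale 9 members were higher and Hrc alone was lower, and calls over all genes were not counted. The median log2 fold change was then 0.59 over the members and 1.16 over all genes, and 9 members lay below the median of all genes. The members as a whole held 0.932 ± 0.0573% of all counts in Control and 0.980 ± 0.0977% after AKG, and 1.57 ± 0.0321% and 1.38 ± 0.0807% of the counts outside mitochondrially encoded genes.

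**Figure D2:**
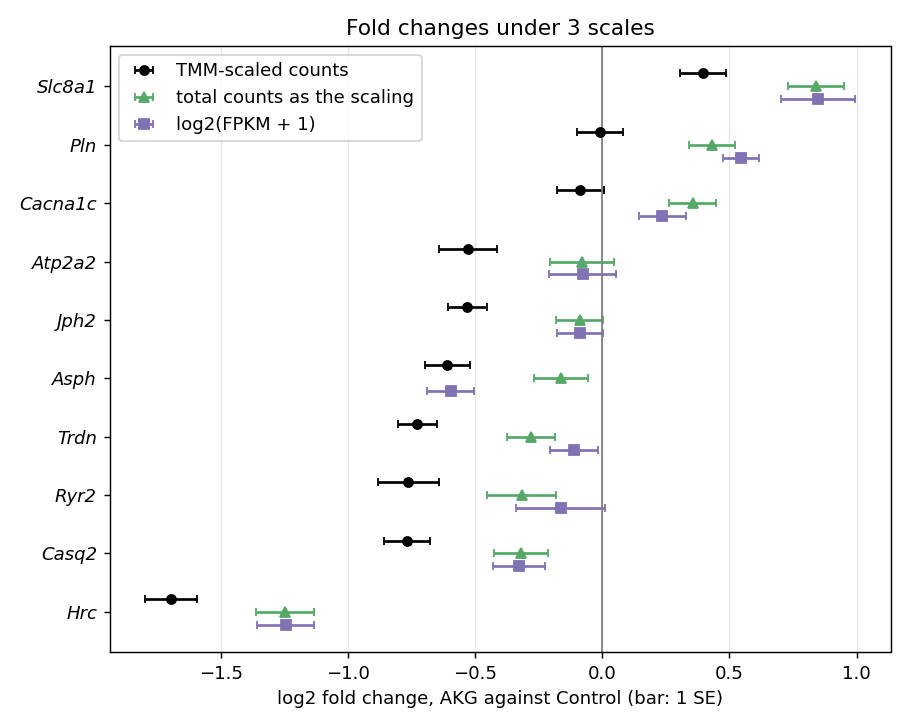
Log2 fold change of each member, AKG against Control, under TMM scaling, total counts as the scaling and log2(FPKM + 1), with bars of 1 SE. Hrc and Casq2 lie left of 0 and Slc8a1 right of 0 on each scale, whereas Pln and Cacna1c lie near 0 under TMM scaling and to the right on the others.

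Entry of calcium was represented by Cacna1c (ENSMUSG00000051331), the pore-forming subunit of the L-type channel, at chr6:118587240-119196418 (all gene positions are those of GENCODE M21, GRCm38). It stood at 458, 472 and 523 CPM in the Control libraries and at 475, 488 and 406 CPM in the AKG libraries. The groups overlapped, with a log2 fold change of -0.09 (SE 0.0929) and an adjusted p of 0.471 by edgeR. On total counts the value was 0.36 (SE 0.0921, edgeR adjusted p = 0.00305).

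Ryr2 (ENSMUSG00000021313, chr13:11553102-12106945), the cardiac ryanodine receptor through which the SR releases calcium, stood at 1179, 1267 and 1278 CPM in Control and at 596, 729 and 871 CPM after AKG. Every AKG library was below every Control library, and the AKG libraries differed from each other by more than the Control libraries did. The log2 fold change was -0.76 (SE 0.121, edgeR quasi-likelihood adjusted p = 2e-04). On total counts it was -0.32 (edgeR, adjusted p = 0.0569).

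Casq2 (ENSMUSG00000027861, chr3:102086415-102146514) encodes calsequestrin, the main calcium buffer of the SR. It was nearly equal in the Control libraries, at 635, 628 and 631 CPM, and lower in each AKG library, at 356, 340.3 and 418 CPM. The log2 fold change was -0.77 (SE 0.0906, edgeR quasi-likelihood adjusted p = 1.32e-05), and -0.32 on total counts (edgeR, adjusted p = 0.0155).

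Hrc (ENSMUSG00000038239, chr7:45335290-45338974) encodes the histidine-rich calcium-binding protein of the SR lumen, which binds triadin and the SERCA2 pump, and its promoter stretch is the first of those printed above. It stood at 369, 376 and 427 CPM in Control and at 106, 118 and 137 CPM after AKG. The highest AKG library was below the lowest Control library, and the fall was the largest among the members on each of the 3 scales. The log2 fold change was -1.69 (SE 0.102, edgeR quasi-likelihood adjusted p = 4.13e-08), and between -1.79 and -1.60 when any library was left out. On total counts it was -1.25.

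Triadin and junctin anchor calsequestrin at the release channel. Trdn (ENSMUSG00000019787, chr10:33080554-33476709), the gene for triadin, stood at 128, 129 and 141 CPM in Control and at 79.5, 75.9 and 85.1 CPM after AKG, without overlap. Its log2 fold change was -0.73 (SE 0.0759, edgeR quasi-likelihood adjusted p = 4.49e-06) and -0.28 on total counts (edgeR, adjusted p = 0.0163). On log2(FPKM + 1) it was -0.11 and not past the threshold (limma, adjusted p = 0.304). Asph (ENSMUSG00000028207, chr4:9448069-9669344), the gene for junctin, junctate and the aspartyl hydroxylase, stood at 179, 179 and 175 CPM in Control and at 107, 109 and 133 CPM after AKG. Its groups did not overlap, with a log2 fold change of -0.61 (SE 0.0876, edgeR quasi-likelihood adjusted p = 7.21e-05). On total counts the change of Asph was -0.16 (edgeR, adjusted p = 0.199).

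Jph2 (ENSMUSG00000017817, chr2:163336242-163397993) encodes junctophilin 2, which holds the surface membrane and the SR at a fixed distance. It stood at 217, 233 and 231 CPM in Control and at 168, 153 and 151 CPM after AKG. The groups did not overlap, and the log2 fold change was -0.53 (SE 0.0768, edgeR quasi-likelihood adjusted p = 7.56e-05). It was -0.09 on total counts (edgeR, adjusted p = 0.408).

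Reuptake into the store rests on the pump and its inhibitor. Atp2a2 (ENSMUSG00000029467, chr5:122453513-122502225), the gene for SERCA2, stood at 3850.2, 4255 and 4320.1 CPM in Control and at 2823, 2491 and 3306 CPM after AKG. All AKG libraries were below all Control libraries, with a log2 fold change of -0.53 (SE 0.114, edgeR quasi-likelihood adjusted p = 0.00171). On total counts it was -0.08 (edgeR, adjusted p = 0.595). Pln (ENSMUSG00000038583, chr10:53337667-53345987), the gene for phospholamban, stood at 3322, 3205 and 3186 CPM in Control and at 3316, 3228 and 3104 CPM after AKG. The groups overlapped almost entirely, with a log2 fold change of -0.01 (SE 0.0906, edgeR quasi-likelihood adjusted p = 0.939). On total counts Pln was higher by 0.43 (edgeR, adjusted p = 0.000546).

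Slc8a1 (ENSMUSG00000054640, chr17:81373105-81738377) encodes the sodium-calcium exchanger NCX1, the main exit route for calcium from the heart muscle cell. It stood at 194, 208 and 199.6 CPM in Control and at 285, 229 and 277 CPM after AKG. The lowest AKG library, AKG 2, was close to the highest Control library. The log2 fold change was 0.40 (SE 0.0904, edgeR quasi-likelihood adjusted p = 0.00246), and 0.84 on total counts. With AKG 2, the library low in atrial transcripts, as the only AKG library it was 0.20 (adjusted p = 0.0767 by edgeR).

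In the authors' deposited table the fold change and the false discovery rate of a gene did not always point alike. The deposited log2 fold change was 0.55 for Pln beside a false discovery rate of 0.972, and -0.06 for Atp2a2 beside 1.85e-06. The deposited log2 fold change equals the log2 ratio of the mean FPKM values. How the false discovery rate was computed is not given in the sources used here. DESeq2 on the deposited counts gave adjusted p-values close to the deposited rates: 0.968 for Pln, 1.61e-06 for Atp2a2 and 3.36e-57 for Hrc. In the authors' deposited table Slc8a1 had 0.93 with 0.000138, Hrc -1.25 with 3.96e-57 and Jph2 -0.09 with 1.2e-09.

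Ratios between members of the same library do not depend on the scaling of the library. In FPKM, the level per length, Pln stood at 1.75, 1.51 and 1.51 transcripts per transcript of Atp2a2 in Control and at 2.59, 2.86 and 1.97 after AKG. Every AKG library had more Pln per Atp2a2 than any Control library, and the geometric mean ratio was 1.54-fold higher. Slc8a1 per Atp2a2 went from 0.0144 ± 0.000628 to 0.0282 ± 0.00148 (SD, n = 3), a 1.97-fold difference without overlap. Hrc per Atp2a2 went from 0.162 ± 0.00964 to 0.0719 ± 0.00856, again without overlap. Jph2 per Cacna1c, the scaffold against the surface channel, went from 1.17 ± 0.0784 to 0.927 ± 0.0650, and these groups did not overlap either.

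Each of these 4 ratios reached an exact two-sided permutation p of 0.1, the smallest that 3 libraries against 3 allow, and 0.175 after Benjamini-Hochberg adjustment over the 7 ratios computed. The ratios at the release channel overlapped between groups. Casq2 per Ryr2 was 2.73 ± 0.155 in Control and 2.46 ± 0.369 after AKG (exact permutation p = 0.3, adjusted 0.42). Trdn per Ryr2 was 0.782 ± 0.0137 and 0.819 ± 0.144 (exact permutation p = 0.7). Cacna1c per Ryr2 was 0.512 ± 0.0251 and 0.699 ± 0.195 (exact permutation p = 0.4, adjusted 0.467), where AKG 3 lay below the Control libraries and the other AKG libraries lay above them. From counts in place of FPKM, the log2 difference of Cacna1c per Ryr2 was 0.69 in place of 0.41, and the groups did not overlap.

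**Figure D3:**
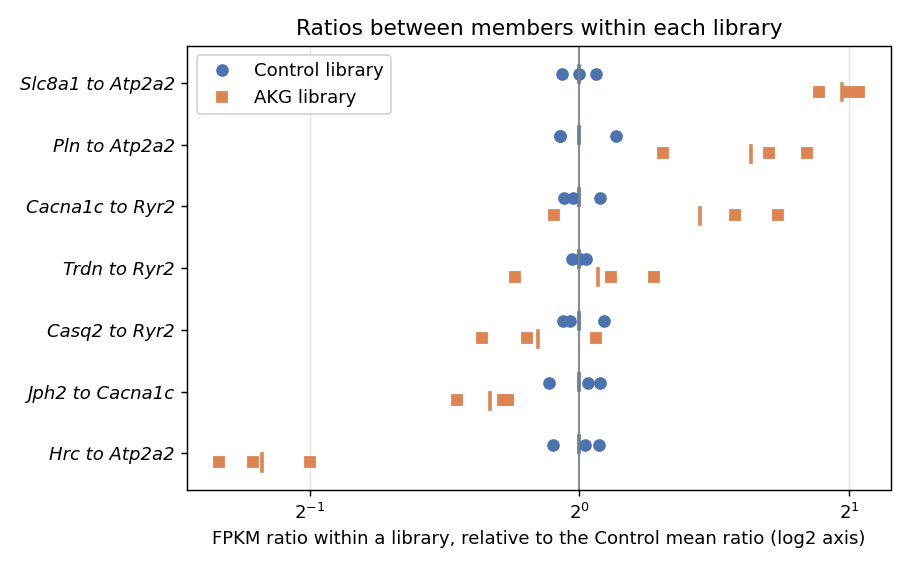
FPKM ratios between members within each library, divided by the Control mean ratio, on a log2 axis. Circles are Control libraries, squares AKG libraries and short bars group means. Squares lie wholly to the right of the circles for Slc8a1 and Pln per Atp2a2, and wholly to the left for Hrc per Atp2a2 and Jph2 per Cacna1c.

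Per length, Pln was the most abundant member in Control at 1358 ± 45.7 FPKM, followed by Atp2a2 (858 ± 80.2), Casq2 (212 ± 8.98), Hrc (139 ± 10.7), Ryr2 (77.7 ± 6.18) and Asph (66.07 ± 2.79). Trdn (60.8 ± 4.48 FPKM), Jph2 (46.3 ± 3.55), Cacna1c (39.9 ± 4.22) and Slc8a1 (12.3 ± 0.630) closed the Control order. The libraries of neighbours in this order did not overlap at any step. After AKG the first 3 places were the same, at 1983 ± 70.0, 822 ± 159 and 170.0 ± 26.4 FPKM, and Slc8a1 was last at 23.3 ± 5.62 FPKM. Between them, Ryr2 overlapped Hrc, Hrc overlapped Trdn, Cacna1c overlapped Asph and Asph overlapped Jph2 in their ranges over libraries. Compared within each library, Ryr2 was above Hrc in all 3 AKG libraries, and the order of the other 3 pairs differed between libraries. Pln made up 47.4 ± 1.68% of the summed FPKM of the 10 members in Control and 59.9 ± 4.12% after AKG, Hrc 4.85 ± 0.315% and 1.76 ± 0.217%, and the groups overlapped for neither.

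A count and an FPKM value together give back the transcript length that the authors' values were divided by. This measure was chosen after values had been seen. It was 2.55 to 2.56 kb for Casq2, and the longest Casq2 transcript of GENCODE M21 has 2556 bases. For Hrc it was 2.40 to 2.41 kb, and the longest Hrc transcript has 2411 bases. The counts are per gene and do not resolve transcripts, and what made such a length differ between libraries was not tested.

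Asph had the largest difference in implied length among the members. It was 2.30, 2.34 and 2.28 kb in the Control libraries and 3.02, 3.02 and 3.32 kb in the AKG libraries. The AKG values all lay above the Control values, with a log2 difference of 0.43 (SE 0.0461). Over 6912 genes with at least 200 counts and an FPKM of 1 or more in every library, the limma adjusted p was 0.0701, and 0.42% of these genes differed by more. With a library left out the limma adjusted p ranged from 0.0332 (without AKG replicate 3) to 0.236 (without Control replicate 1), and the other 4 such fits did not pass either. With a minimum of 1000 counts it was 0.041. GENCODE M21 lists 15 coding transcripts of Asph. The 3 with the longest coding parts (1974 to 2223 bases) are 6453 to 6694 bases long, and the other coding transcripts are at most 2884 bases long with coding parts of at most 930 bases. The median gene had a difference of -0.0001. FPKM of Asph went from 66.07 ± 2.79 to 43.5 ± 4.55, a larger fall than that of its counts on total-count scaling.

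Lengths of other members moved less. Ryr2 went from 13.7 ± 0.134 to 12.2 ± 0.881 kb (limma adjusted p = 0.32), Trdn from a mean of 1.87 to 1.66 kb (limma adjusted p = 0.164) and Pln from 2.04 ± 0.0191 to 1.89 ± 0.0412 kb (limma adjusted p = 0.129). Cacna1c went from 10.4 ± 0.389 to 11.3 ± 0.257 kb (limma adjusted p = 0.291). The groups of these 4 and of Asph did not overlap and differed by at least 0.1 on the log2 scale, as in 7.25% of all genes. By limma, 0 of the 10 members passed an adjusted p of 0.05 with such a difference, where 0.188% of all genes did, 0.101% longer and 0.0868% shorter, and 5 passed at an unadjusted p under 0.05, as 391 of all 6912 genes did.

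**Figure D4:**
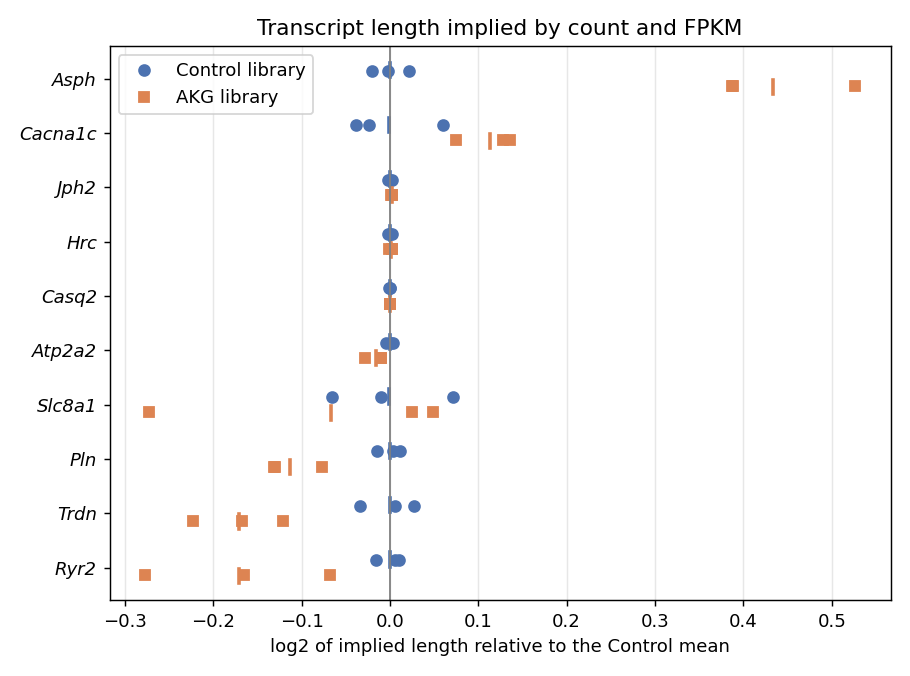
Transcript length implied by the deposited count and FPKM of each member, as log2 relative to the Control mean. Circles are Control libraries, squares AKG libraries and short bars group means. The Asph squares lie to the right of the circles, and those of Hrc, Jph2 and Casq2 lie at 0 with the circles.

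Beyond the members, calcium handling genes were taken from a wider list. Of 66 further genes in 8 role groups, 59 were tested, 10 rose, beside 25% of all genes, and 20 fell, beside 25.2% of all genes, with a median log2 fold change of -0.10 beside 0.00 for all genes. On total counts 32 were higher, beside 56.7% of all genes, and 10 lower, beside 9.12% of all genes, and those 10 were among the 20. The paragraphs below name up to 4 changed genes of each role and say where the scaling changes the call.

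In the SR lumen and membrane, 3 of 5 tested genes fell, beside 25.2% of all genes. Casq1, the skeletal muscle calsequestrin, fell from 36.9 ± 7.35 to 5.59 ± 0.411 CPM (log2 fold change -2.72, edgeR quasi-likelihood adjusted p = 2.52e-08), the largest fall in the set. Calr, the gene for the lumenal chaperone calreticulin, fell from 269 ± 19.9 to 155 ± 19.03 CPM. Both were also lower on total counts. Tmem38a, a cation channel of the SR that accompanies calcium release, fell by 0.69 on the log2 scale, and on total counts was not past the threshold (-0.24, edgeR adjusted p = 0.0537).

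Among small regulators of the pump other than Pln, only low levels were found, except for Sln in AKG 1 and AKG 3. Sln, the gene for the atrial pump inhibitor sarcolipin, reached 42.8 CPM in AKG 1, 0.186 in AKG 2 and 28.8 in AKG 3. Its Control libraries held 0.476, 0.248 and 0 CPM, and it did not pass the count filter. Mrln and Strit1, the genes for myoregulin and for the pump activator DWORF, were at 0.476 CPM or less in every library, and Strit1 was listed at 0 in the AKG libraries. Of the other pump genes, Atp2a3 stood at 22.06 ± 1.72 and 18.1 ± 2.90 CPM (adjusted p = 0.0663 by edgeR) and was past the threshold without AKG replicate 2 (0.019). Atp2a1, the skeletal muscle pump gene, stood at 0.362 and 0.371 CPM and was not tested.

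Among release channels and proteins bound to them, 2 of 8 tested genes rose and 2 fell, near the shares of all genes (25% and 25.2%). S100a1, a calcium sensor of muscle that binds the ryanodine receptor and the pump, fell from 265 ± 23.0 to 114 ± 18.4 CPM (adjusted p = 2.48e-06 by edgeR), and was lower on total counts too. Itpr2, known as the main inositol trisphosphate receptor of heart muscle cells, rose from 39.0 ± 0.928 to 55.08 ± 4.64 CPM (adjusted p = 0.000235 by edgeR), and was higher on total counts too. Fkbp1a, which encodes FKBP12, fell from 195 ± 4.21 to 164 ± 11.9 CPM. This call was lost without Control replicate 1 (edgeR, adjusted p = 0.0573) or Control replicate 3 (0.0525), and the value was 0.19 on total counts. Fkbp1b, which encodes the ryanodine receptor partner FKBP12.6, went from 0.817 ± 0.209 to 1.53 ± 0.288 CPM at an edgeR adjusted p of 0.0492, and no fit with a library left out passed the threshold (0.0534 to 0.166). By DESeq2 the adjusted p of Fkbp1b was 0.138. Ryr3 stood at 1.04 ± 0.393 and 2.71 ± 1.82 CPM (adjusted p = 0.102 by edgeR). It reached 4.22 CPM in AKG 1 and 3.22 CPM in AKG 3, the libraries that stood apart in atrial markers. In AKG 2 it was at 0.683 CPM, within the Control range of 0.589 to 1.29 CPM. Ryr3 was higher on total counts (edgeR, adjusted p = 0.0368) and by DESeq2 (adjusted p = 0.0348). Without AKG replicate 2 the Ryr3 value was 1.82 on the log2 scale with an edgeR adjusted p of 0.00108. Ryr1 stood at 0.251 CPM in Control and 0.0764 CPM after AKG and was not tested.

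Among surface channels, 3 of 9 tested genes fell and 1 rose, beside 25.2% and 25% of all genes. Rrad, the gene for a small G protein that restrains the L-type channel, fell from 158 ± 10.1 to 78.0 ± 3.87 CPM (adjusted p = 2.75e-07 by edgeR). Cacna2d1, an auxiliary subunit of the same channel, fell from 139 ± 4.07 to 79.1 ± 0.917 CPM (adjusted p = 6.96e-07 by edgeR). Both were lower on total counts as well. Of the T-type channel genes, Cacna1h rose from 29.1 ± 2.95 to 41.3 ± 5.22 CPM (adjusted p = 0.00171 by edgeR), also on total counts. Cacna1g stood at 51.01 ± 3.18 and 35.5 ± 9.29 CPM with an edgeR adjusted p of 0.0289. That call was lost without Control replicate 1 (0.0898), Control replicate 2 (0.0761), AKG replicate 2 (0.0581) or AKG replicate 3 (0.137), and on total counts (-0.08, edgeR adjusted p = 0.688).

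At the dyad, where surface membrane and SR meet, 3 of 7 tested genes fell and 2 rose, beside 25.2% and 25% of all genes. Speg, a kinase gene whose product binds junctophilin 2 and acts on the pump, fell from 503 ± 54.2 to 159 ± 7.31 CPM (log2 fold change -1.66, edgeR quasi-likelihood adjusted p = 2.31e-08), and by 1.22 on total counts. On log2(FPKM + 1) Speg was at -0.86 (limma, adjusted p = 5.24e-06). Cav3, the muscle caveolin of T-tubules, fell by 0.48 on the log2 scale, with -0.03 on total counts (edgeR, adjusted p = 0.779). Popdc2, a membrane protein of the heart that binds cyclic AMP, rose from 295 ± 6.76 to 381 ± 13.4 CPM (adjusted p = 0.00115 by edgeR), also on total counts. Ank2, which anchors the exchanger, fell by 0.20 at an edgeR adjusted p of 0.0438, and rose by 0.24 on total counts (0.0416). The Ank2 call was lost without any 1 of Control 1 (0.101), Control 2 (0.108), Control 3 (0.102), AKG 1 (0.136) and AKG 2 (0.158), and by DESeq2 (0.0806). Jph1, the skeletal muscle junctophilin, stood at 8.59 ± 0.755 and 11.6 ± 2.57 CPM with an edgeR adjusted p of 0.04, and its groups overlapped. It was lost without Control 1 (0.101), Control 2 (0.0568), Control 3 (0.131), AKG 2 (0.0628) or AKG 3 (0.189), and by DESeq2 (0.0715).

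Among calmodulin, kinases and their partners, 5 of 14 tested genes fell and 3 rose, beside 25.2% and 25% of all genes. Of the calcium and calmodulin dependent kinase genes, Camk2a rose from 37.7 ± 3.73 to 68.4 ± 9.05 CPM (adjusted p = 2.03e-05 by edgeR). Camk2b fell from 9.38 ± 0.487 to 5.07 ± 0.509 CPM (0.000319), and each moved in that direction on total counts. Camk2d, at 148 ± 1.35 and 139 ± 6.97 CPM (0.338), and Camk2g, at 46.1 ± 2.07 and 47.0 ± 1.79 CPM (0.772), were not past the threshold. On total counts Camk2d and Camk2g were higher. Prkaca, the catalytic subunit of protein kinase A that phosphorylates phospholamban, fell from 176 ± 5.22 to 131 ± 3.56 CPM (adjusted p = 0.000254 by edgeR), with 0.02 on total counts (0.833).

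Of 7 tested genes of extrusion and store-operated entry, 1 rose, beside 25% of all genes. It was the entry channel gene Orai3, which went from 12.3 ± 1.23 to 16.4 ± 1.57 CPM (adjusted p = 0.0121 by edgeR). The Orai3 call was lost without Control replicate 3 (0.0614) or AKG replicate 2 (0.0556). Of 8 mitochondrial genes, 4 fell and 1 rose, beside 25.2% and 25% of all genes. Letm1, an inner membrane cation exchanger gene, fell from 96.04 ± 5.73 to 36.8 ± 5.54 CPM (adjusted p = 3.13e-07 by edgeR) and Smdt1, the gene for the EMRE subunit of the uniporter, from 77.5 ± 7.92 to 38.2 ± 3.39 CPM (1.37e-06), both also on total counts. The log2 fold change of Letm1 was -1.39, and -0.56 on log2(FPKM + 1) (limma, adjusted p = 0.00109). Micu2, a gate of the uniporter, rose from 53.3 ± 1.13 to 71.5 ± 7.14 CPM (adjusted p = 0.000778 by edgeR), also on total counts. Mcu, the pore of the uniporter, fell by 0.36 on the log2 scale (edgeR, adjusted p = 0.0102), which was lost without Control replicate 1 (0.0652), and stood at 0.08 on total counts.

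**Figure D5:**
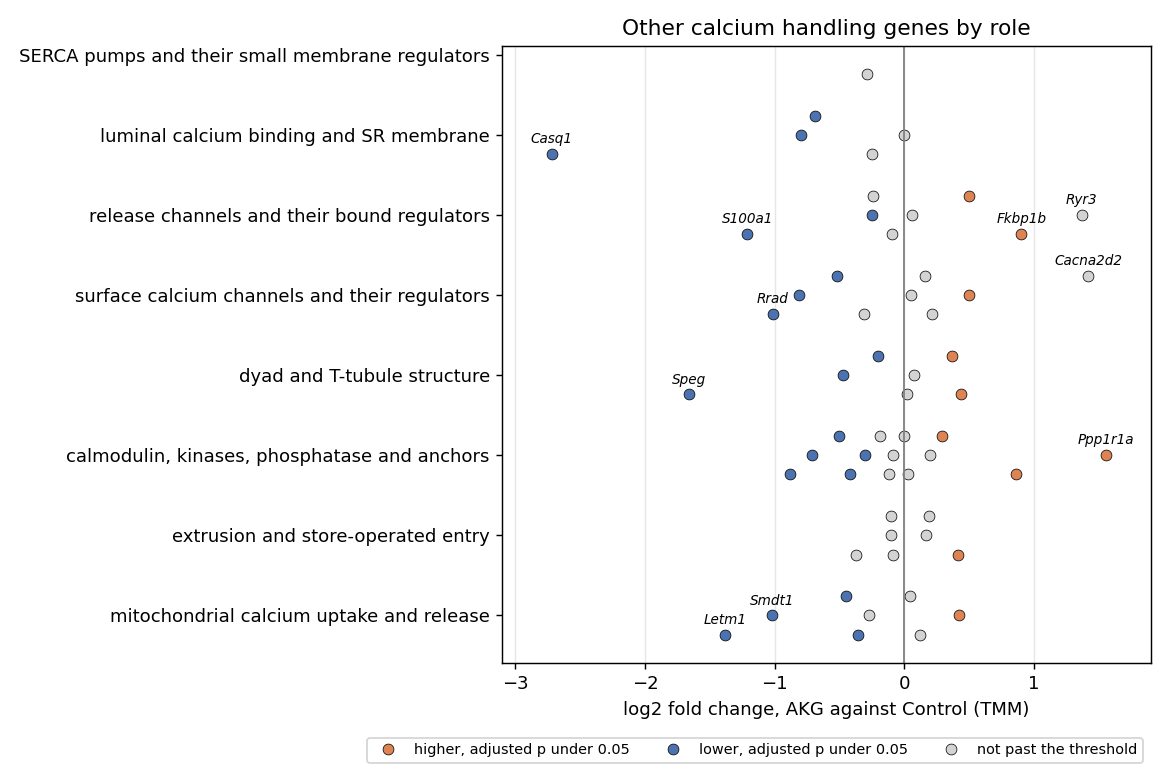
Log2 fold change after TMM scaling of the 59 tested further calcium handling genes by role, 1 point per gene, coloured by whether edgeR's quasi-likelihood test passed the adjusted threshold of 0.05. Casq1, Speg, Letm1 and S100a1 lie farthest to the left, and the vertical offset within a role only separates points.

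Over all tested genes, the 3 whose levels followed Atp2a2 most closely over the 6 libraries were Klhdc4, Fsd2 and Serping1, with root mean square differences of 0.0509, 0.0521 and 0.0567 in centred log2 CPM. Those nearest to Hrc were Rtp3, Gm10053 and Rtn4ip1, at 0.0608, 0.0716 and 0.0754. Fsd2 went from 116 ± 8.29 to 78.0 ± 12.7 CPM and Rtn4ip1 from 35.07 ± 4.27 to 9.92 ± 1.37 CPM.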

How the data were processed

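RNA was measured in 3 Control and 3 AKG libraries. The authors deposited expected counts per gene as whole numbers (60 values of 0 stand beside an FPKM above 0) and FPKM values, scaled to length and library total. The authors also deposited, for each gene, their log2 fold change with its p-value and false discovery rate. HISAT2 2.1.0, RSEM 1.2.19 and DESeq2 1.20.0 are named in the submitters' processing notes. What each tool did, which genome build and which annotation served: not given in the sources used here. Tests on expected counts used edgeR 4.0.16 under R 4.3.3: filterByExpr (minimum count 10, minimum total 15), TMM, robust quasi-likelihood test, Benjamini-Hochberg adjustment over 13117 genes, threshold 0.05. SEs were worked back from each fold change and its F statistic (the size of the change over √F). Implied lengths were fitted with limma 3.58.1. Alternatives were other scalings and filters, DESeq2 1.42.0, limma on FPKM after adding 1 or 0.1 and taking log2 (genes at 1 FPKM or more in 3 libraries), a replicate block and leaving out libraries. Rows without a symbol (30) were not named. A floor of 3 counts corresponds to 0.166 to 0.221 CPM, which covers counting error only. The fits were also run on simulated data in which only a small part of the genes changed, which does not test the choice of scaling.

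Besides Camk2d and Camk2g, the genes named followed a rule. They were all 10 members, up to 4 changed genes without overlap per role by smallest p, 10 paralogs and small regulators whatever they did, and the 3 genes nearest to Atp2a2 and to Hrc. A gene that this rule names is not reported here. Members and lists were chosen with earlier results of these data known. Of 22063 gene IDs, 21973 are in GENCODE M21.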

Additional observations from a re-analysis of the deposited data

How the results depend on the processing

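RLE size factors, DESeq2, the removal of mitochondrially encoded genes and the absence of a filter kept 7 members lower and 1 higher. Leaving out any library did too, with 2751 to 3296 genes higher and 2845 to 3243 lower over the whole table, and 7 to 10 higher and 15 to 20 lower in the wider list.

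Against 3281 higher and 3309 lower of all genes, total counts gave 7431 and 1196, log2(FPKM + 1) gave 6722 and 1075, and log2(FPKM + 0.1) gave 6709 and 1070. For the members each of these gave 3 higher and 3 lower, but not the same genes. Trdn was lower on total counts only, and Asph was lower on the FPKM scales only. On log2(FPKM + 1) Trdn was at -0.11 (limma, adjusted p = 0.304) and Asph at -0.59 (limma, adjusted p = 0.000114). For the wider list they gave 32 and 10, 29 and 9, and 29 and 9. With AKG 2 as the only AKG library, assumed to vary like the Controls, 0 members were higher and 7 lower, and no member other than Slc8a1 changed its call. Scaling to the summed cardiomyocyte markers, chosen after seeing the data, gave 9 members higher and 1 lower, beside a median of 1.16 over all genes. Of the members, 9 lay below that median. The log2 values were then 0.63 for Atp2a2, 1.15 for Pln, 0.39 for Ryr2, 0.39 for Casq2, 0.43 for Trdn, 0.63 for Jph2, 1.08 for Cacna1c and 0.55 for Asph.

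The following values had the opposite sign to those in the report or moved. Pln ranged from -0.0244 to 0.0207 when a library was left out. It was 0.43 on total counts, 0.55 on either FPKM scale, 0.0008 without a filter, 0.0083 without Control replicate 1, 0.0207 without AKG replicate 3 and 0.0013 with AKG 2 alone. Cacna1c was 0.36 on total counts, 0.24 on either FPKM scale and 0.0185 with AKG 2 alone. On total counts, log2(FPKM + 1) and log2(FPKM + 0.1), Fkbp1a was 0.19, 0.1889 and 0.1904, Ank2 0.24, 0.21 and 0.22, Prkaca 0.0228, 0.021 and 0.0212, Mcu 0.0844, 0.0907 and 0.1032, and Atp2a3 0.15, 0.1227 and 0.1476. Ryr3 was -0.61 with AKG 2 alone. In CPM, the log2 difference of Casq2 per Ryr2 was 0.0075 and that of Jph2 per Cacna1c was -0.44. Trdn per Ryr2 ranged from -0.0603 to 0.1968 when a library was left out, with the lowest value without AKG replicate 1. The members' share of counts differed by -0.1955 percentage points without mitochondrially encoded genes, and by -0.0044 (without AKG replicate 3) to 0.0925 when a library was left out. The cause of these changes was not tested.

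With the replicate number as a block, 3257 genes were higher and 3314 lower, 1 member was higher and 7 lower, and 9 and 21 genes of the wider list. Libraries with the same number had deviations that correlated at 0.181, -0.057 and 0.06, and those with different numbers at -0.147 to 0.084. With 3 libraries per group these values cannot tell whether the numbers pair libraries. The implied length of Asph, an added measure, had a limma adjusted p of 0.0332 without AKG replicate 3, 0.133 to 0.236 without any other library, and 0.041 at a minimum count of 1000. Counting depth limited Mrln, Strit1, Ryr1 and Atp2a1, which were not tested. Sln was not tested either, with 762 and 519 counts in AKG 1 and AKG 3 and 7 or fewer in every other library.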
